A study of Mus musculus with 2 samples.

Results

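IgA plasma cells are antibody-secreting cells whose heavy chain locus has switched to the alpha constant gene, Igha. They were selected on measured RNA in single-cell libraries of mouse optic nerve: a barcode had to show 500 or more genes, no more than 10% of UMIs from mitochondria, at least 20 UMIs of Jchain, at least 3 of Mzb1, at most 1 of Cd3d, Cd3e and Cd3g together, and more UMIs of Igha than of each of Ighm, Ighd, Ighg1, Ighg2b, Ighg2c and Ighg3. A UMI is a molecular tag that marks 1 captured RNA molecule. By this rule 332 of the 21912 barcodes were IgA plasma cells, 224 of them from mice given anti-PD-1 and 108 from mice given anti-TIGIT. The levels of Igha, Jchain, Mzb1, the other heavy chain constant genes and the Cd3 genes were what the cells were chosen by, so they are described below without a test.

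Both libraries came from Nf1-OPG mice (Nf1flox/neo; GFAP-Cre), a model of the optic pathway glioma of neurofibromatosis type 1, in which a neomycin cassette interrupts 1 Nf1 allele in every cell and Cre driven by the GFAP promoter deletes the floxed allele in neuroglial progenitors and their descendants. Each library was made from the pooled nerves of 10 mice aged 12 weeks, after removal of debris and myelin and a sort for live cells that exclude 7-AAD. The mice of one library were given an antibody against PD-1 (anti-PDCD1 in the labels) and those of the other an antibody against TIGIT; both proteins are inhibitory receptors best known on T cells. With 1 pooled library per treatment the differences between treatments have no replicate check and no untreated library was analysed here. The protocol text also mentions suspensions of meningeal dura without saying whether dura entered these libraries.

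Plasma cells are the end stage of the B cell lineage. Their endoplasmic reticulum is enlarged to fold and export antibody, a state set up by the transcription factors Blimp-1 (Prdm1), IRF4 and XBP1. IgA is the main antibody of mucosal surfaces, where the J chain joins IgA units into polymers that epithelial cells carry into secretions. IgA plasma cells home by chemokine receptors such as CCR9 and CCR10 and live long where they receive signals through BCMA (Tnfrsf17), and they are also known from the meninges, where part of them derives from the gut.

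After anti-PD-1 there were 13997 barcodes with 85031565 UMIs in all, and after anti-TIGIT 7915 barcodes with 40733655 UMIs. After the limits on genes and mitochondrial UMIs, 12605 and 7179 barcodes were kept, with median depths of 5120 and 4453 UMIs. The libraries shared 163 barcode sequences. No barcode was an IgA plasma cell in both libraries, and 3 and 5 IgA plasma cells had a barcode that also occurred in the other library.

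The cells carried the markers of their name. Igha ranged from 1 to 2118 UMIs per cell with a median of 235.5 in the anti-PD-1 library, and from 13 to 820 with a median of 222 in the anti-TIGIT library. Jchain had medians of 852.5 and 835.5 UMIs per cell, with a range of 20 to 3368 and of 71 to 2040. The markers that the rule did not use were present as well: Sdc1, which encodes the plasma cell surface proteoglycan CD138, was detected in 71.9% and 76.9% of the cells, against 36 of 4633 and 16 of 2666 barcodes with oligodendrocyte markers. Derl3, a component of the machinery that removes misfolded proteins from the endoplasmic reticulum, was detected in 88.8% and 95.4%. The 6 B cell markers had a median of 0 UMIs per cell in both libraries, and Fcer2a was at 0 in both.

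Immunoglobulin genes took a median of 56.1% of the UMIs of a cell in the anti-PD-1 library (2.12% to 81.7%) and 62.1% in the anti-TIGIT library (4.99% to 81.5%). Most of these UMIs lay on variable segments, as a 5′ library reads from the start of the transcript. After anti-PD-1, heavy chain variable segments held 13.9% and light chain variable segments 35.8% of the UMIs of all IgA plasma cells together, and after anti-TIGIT 18.1% and 35.5%. The heavy chain constant genes held 1.98% and 1.58%. Because of this load all other genes are given as CPM, the count scaled to the UMIs outside the immunoglobulin genes.

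**Figure D1:**
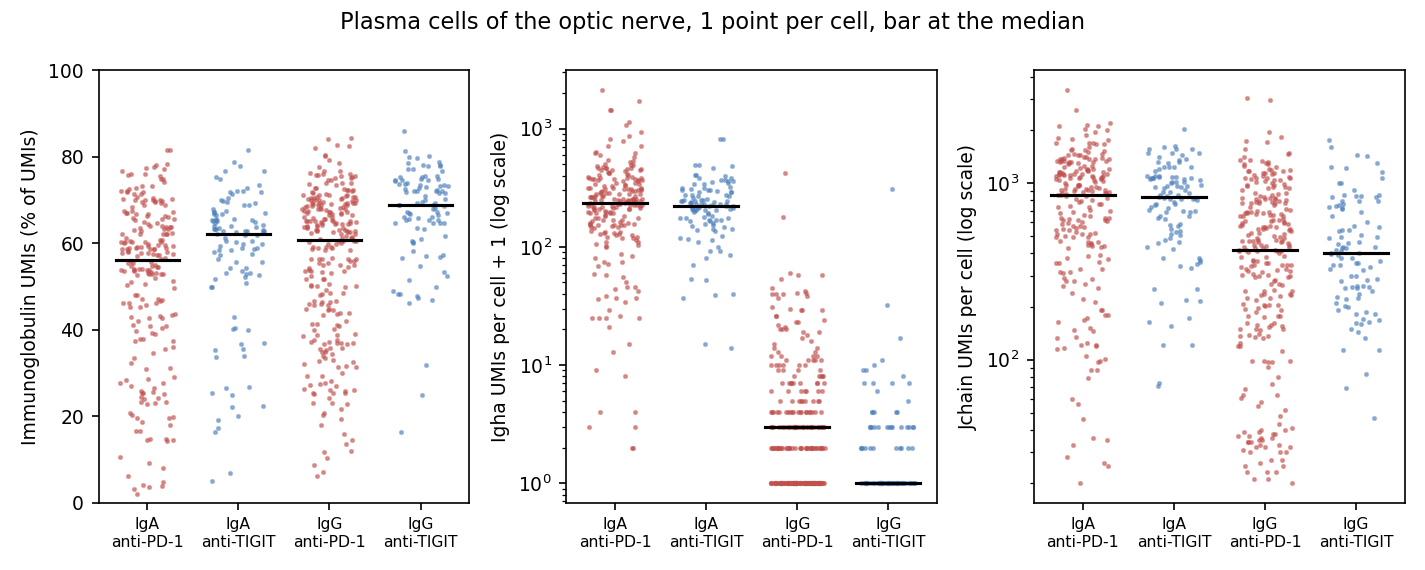
Immunoglobulin UMIs as a percentage of the UMIs of each cell (left), Igha UMIs per cell plus 1 on a log axis (middle) and Jchain UMIs per cell on a log axis (right), for IgA and IgG plasma cells of each library, with 1 point per cell and a bar at the median. IgA plasma cells sit at median Igha levels of 235.5 and 222 UMIs against 2 and 0 in IgG plasma cells, which the choice of cells fixes, and at about the same Jchain level in both libraries (medians of 852.5 and 835.5).

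Few cells lay near the Jchain limit. After anti-PD-1, 4 IgA plasma cells had 20 to 29 Jchain UMIs (median of 7.5 Igha UMIs), and 5 barcodes that met the other limits had 10 to 19 (median of 10). After anti-TIGIT the numbers were 0 and 3. A further 104 and 20 barcodes that met the other limits had 0 to 9 Jchain UMIs, with medians of 9 and 5.5 Igha UMIs. The Cd3 limit left out more: 122 barcodes after anti-PD-1 and 30 after anti-TIGIT met every other condition and carried more than 1 Cd3 UMI. Igha and Jchain UMIs were also found in other barcodes: 8.12% and 3.34% of barcodes with oligodendrocyte markers held an Igha UMI and 56.9% and 27.3% a Jchain UMI.

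RNA of other cells was more common in IgA plasma cells after anti-PD-1. Of these 224 cells, 42 (18.8%, exact 95% interval 13.9% to 24.5%) carried at least 5 UMIs of a marker list of microglia, border macrophages, astrocytes, oligodendrocyte precursors, fibroblasts, endothelium, mast cells or neutrophils, or at least 50 of the oligodendrocyte markers, against 6 of 108 (5.56%, 2.07% to 11.7%) after anti-TIGIT. The 7 microglia markers summed to 819 and 219 CPM, with Sall1 at 0 in the anti-TIGIT library, and the 8 oligodendrocyte markers to 4960 and 2458 CPM. The 9 T cell markers summed to 22.2 and 13.9 CPM, against 7071 and 5552 CPM in barcodes with T cell markers of the same libraries, and Cd8b1 and Trbc1 were at 0 in both. The rule capped Cd3d, Cd3e and Cd3g, which are among the 9, and the compared barcodes were classed by the same list. This contrast is thus in part fixed by the choice of cells. Fibroblast markers were at 1.31 and 0 CPM. The 7 markers of monocytes and dendritic cells, of which Ly6c2 is also a plasma cell gene, summed to 1664 and 1393 CPM. The main differences between treatments below are also given without the barcodes that carry other cells' markers, a choice made after the values were seen. The part of that RNA in the differences was not otherwise tested.

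Plasma cells of female mice, IgA and IgG alike, were few after anti-TIGIT. There, 5 IgA plasma cells had Xist UMIs and no Y-linked UMIs and 56 the reverse. IgG plasma cells of that library split into 2 and 49, whereas all its kept barcodes split into 1522 and 2518. In the anti-PD-1 library the counts were 53 and 59 among IgA plasma cells, 62 and 84 among IgG plasma cells and 3203 and 3566 among all kept barcodes. Sex is the sole trace of the donor mouse in the files, so treatment and the mice that contributed plasma cells cannot be told apart.

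Igha was the most frequent top constant gene of plasma cells in both libraries, though the IgG genes together led in more cells after anti-PD-1 (276) and in fewer after anti-TIGIT (98). It led in 224 of 505 plasma cells after anti-PD-1 (44.4%, exact 95% interval 39.97% to 48.8%) and in 108 of 206 after anti-TIGIT (52.4%, 45.4% to 59.4%), where plasma cells were all barcodes that met the same limits whatever their isotype. The difference was -8.07 percentage points (95% interval -16.0 to 0.00807), an interval that just holds 0. Ighg2c followed with 163 and 60 cells, then Ighg2b with 70 and 35. Ighg1 led in 43 plasma cells after anti-PD-1 (8.51%, 6.23% to 11.3%) and in 3 after anti-TIGIT (1.46%, 0.301% to 4.20%). Ighg3 led in 0 of 505 and 0 of 206, which allows shares of up to 0.594% and 1.46% (3 cells of the total). Ighm led in 2 and 0 plasma cells.

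As a share of all kept barcodes, IgA plasma cells made up 1.78% (1.554% to 2.02%) after anti-PD-1 and 1.504% (1.24% to 1.81%) after anti-TIGIT. The difference of 0.273 percentage points had an interval of -0.104 to 0.628, so it was not detectable at these numbers. It was 0.0231 points without the barcodes that carry other cells' markers, and 0.823 points (0.384 to 1.24) when the Cd3 limit was left out. Within Xist-positive barcodes the shares were 1.65% and 0.329%, and within barcodes with Y-linked transcripts they were 1.65% and 2.22%.

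**Figure D2:**
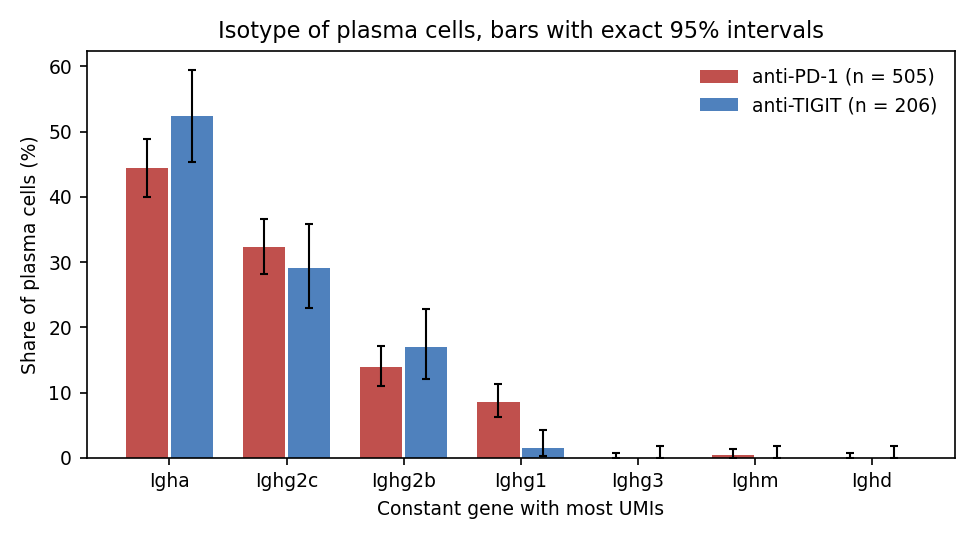
Share of plasma cells, in percent, whose heavy chain constant UMIs were led by each gene, for the anti-PD-1 (505 plasma cells) and anti-TIGIT (206 plasma cells) libraries, with exact 95% intervals that cover counting error. Igha led in 44.4% and 52.4%, and Ighg1 in 8.51% and 1.46%.

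The variable segments show which antibodies the cells made, as far as segments without the junction can. A heavy and a light chain variable gene could both be assigned, each with at least 3 UMIs and most UMIs of its kind, in 201 of 224 IgA plasma cells after anti-PD-1 and in 104 of 108 after anti-TIGIT. They formed 75 and 38 different pairs, and 78.1% and 75.0% of cells had a pair that occurred at least 2 times in the library. The 5 most frequent pairs covered 33.8% of the cells after anti-PD-1 and 54.8% after anti-TIGIT. Among cells with Y-linked transcripts only, 50 and 56 of which had both segments assigned, the shares were 54% and 58.9%. The assigned light chain V gene was a lambda gene in 2 cells of each library. The files hold no junction sequences and several V genes are nearly identical, so a shared pair is not a clone.

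Ighv1-81 was the most used heavy chain gene in both libraries. It was carried by 53 of 203 IgA plasma cells after anti-PD-1 (26.1%, 20.2% to 32.7%) together with 9 different light chain genes, and by 35 of 104 after anti-TIGIT (33.7%, 24.7% to 43.6%) together with 7. In IgG plasma cells its share was 16.4% and 27.9%. With Igkv8-30 it was found in 7 IgA plasma cells after anti-PD-1 and 15 after anti-TIGIT, and with Igkv9-124 in 4 and 13. Its pairs with Igkv6-14 (15 cells) and Igkv6-20 (13 cells) occurred among IgA plasma cells after anti-PD-1 and in 0 after anti-TIGIT.

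Some pairs were common to both libraries and others were found in 1 alone. Ighv8-12 with Igkv8-21 was frequent in both, with 12 and 13 IgA plasma cells, and also occurred in 13 and 4 IgG plasma cells. Ighv1-40 with Igkv1-110 was found in 16 IgA and 22 IgG plasma cells after anti-PD-1 and in 0 of 104 and 0 of 86 after anti-TIGIT. Ighv1-64 with Igkv3-5 occurred in 12 IgA plasma cells after anti-PD-1, and Ighv1-14 with Igkv4-57-1 in 10 after anti-TIGIT, each in 0 IgG plasma cells. Of the IgA pairs seen after anti-PD-1, 31 were also found in its IgG plasma cells (41.3% of the IgA and 52.5% of the IgG pairs), and after anti-TIGIT 12 (31.6% and 35.3%). Between the libraries the IgA plasma cells shared 10 pairs, 13.3% of those after anti-PD-1 and 26.3% of those after anti-TIGIT. Ighv1-40 with Igkv1-110 was seen in IgA plasma cells of both sexes, 5 Xist-positive cells and 3 with Y-linked transcripts.

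**Figure D3:**
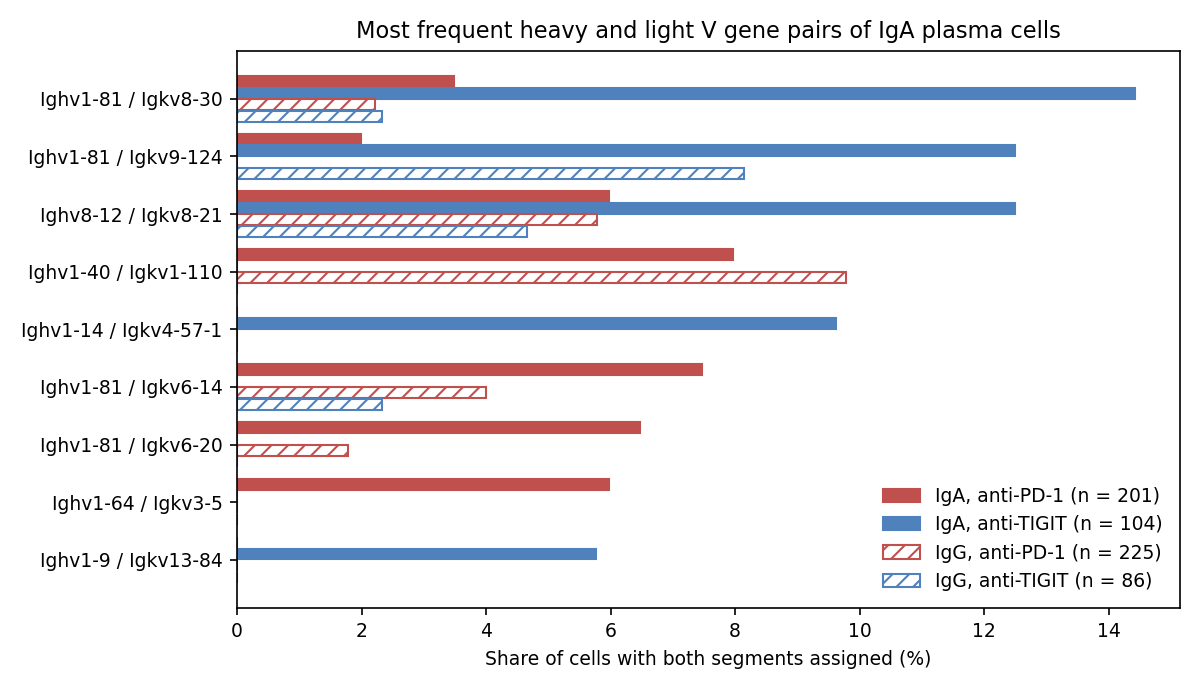
Share, in percent of cells with both segments assigned, of the heavy and light chain V gene pairs that were among the 5 most frequent of IgA plasma cells in either library, for IgA (filled) and IgG (hatched) plasma cells of each library. Ighv8-12 with Igkv8-21 is present in all 4 groups, while Ighv1-64 with Igkv3-5, Ighv1-14 with Igkv4-57-1 and Ighv1-9 with Igkv13-84 each appear in IgA plasma cells of 1 library.

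IgA plasma cells differed from the IgG plasma cells of the same nerves in a short list of genes. They had more transcript of receptors for survival, homing and inhibition (Tnfrsf17, Ccr10, Tigit and Btla) and less of the surface gene Ly6c2 and the protease inhibitor Slpi. The comparison was made within each library, with the libraries as 2 replicates, by edgeR's quasi-likelihood test with library as a block and Benjamini-Hochberg adjustment over all 8567 genes tested. At an adjusted p under 0.05 it called 20 genes higher in IgA (0.233%) and 19 lower (0.222%), of which 38 had the same direction in both libraries. Jchain stayed in the fit and is among the 20; since it helped to choose the cells, its call is no result and its levels are a description. The nerves of the same mice supplied both isotypes of a library, and the fit leaves 1 residual degree of freedom, so the p-values lean on the spread shared by all genes. Without the block for library edgeR called no gene, with 300 genes at an unadjusted p under 0.05.

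Jchain stood at 123875 CPM in IgA and 73742 CPM in IgG plasma cells after anti-PD-1, and at 125638 and 83444 CPM after anti-TIGIT.

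Tnfrsf17 encodes BCMA, the receptor by which plasma cells receive the survival factor APRIL. It stood at 126 CPM in IgA and 25.1 CPM in IgG plasma cells after anti-PD-1, and at 119 and 41.8 CPM after anti-TIGIT. Both IgA levels lay above both IgG levels, with a log2 fold change of 2.06 ± 0.24 (SE; edgeR adjusted p = 0.00928). In the anti-PD-1 library 1 cell held 30 of the 192 UMIs. Of the 12 tested genes on the plasma cell survival list this was the sole one that edgeR called, beside 0.233% higher and 0.222% lower of all genes. DESeq2 called 1 as well, among 9.

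Ccr10 encodes the receptor for CCL27 and CCL28, the chemokines that draw IgA plasma cells to skin and mucosal tissue. Its level was 154 and 61.6 CPM (IgA and IgG) after anti-PD-1 and 310 and 97.0 CPM after anti-TIGIT, a log2 fold change of 1.53 ± 0.16 (edgeR adjusted p = 0.00766). At least 1 Ccr10 UMI was found in 122 of 224 and 74 of 108 IgA plasma cells. Thinned to 1000 UMIs outside the immunoglobulin genes, 14.3% and 28.7% of IgA, 6.57% and 8.16% of IgG plasma cells and 0.0461% and 0.0765% of barcodes with oligodendrocyte markers held one. Cxcr3, the receptor for the interferon-induced chemokines CXCL9 and CXCL10, went the other way, with 95.5 and 190 CPM after anti-PD-1 and 144 and 271 CPM after anti-TIGIT (log2 fold change -0.91 ± 0.15, edgeR adjusted p = 0.0456). These were the 2 genes called among 13 tested on the homing and adhesion list, beside 0.233% and 0.222% of all genes; DESeq2 called Ccr10 alone, among 12.

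Tigit, the target of one of the antibodies, was detected in IgA plasma cells. It stood at 113 CPM in IgA and 35.4 CPM in IgG plasma cells after anti-PD-1, and at 170 and 51.8 CPM after anti-TIGIT (log2 fold change 1.74 ± 0.18, edgeR adjusted p = 0.00545). In the same libraries barcodes with T cell markers held 723 and 352 CPM. Its 173 UMIs after anti-PD-1 came from 68 cells, at most 17 in a cell, and its 122 UMIs after anti-TIGIT from 45 cells, at most 10 in a cell. Genes that define T cells were near 0 in the same cells, with 3 and 2 UMIs of Trac and 6 and 3 of Trbc2. The rule capped Cd3 UMIs, which left out 122 barcodes after anti-PD-1 and 30 after anti-TIGIT that met every other condition. The low Trac and Trbc2 counts are thus in part fixed by the choice of cells. Whether Tigit UMIs came from T cells was not tested. Tigit UMIs were also found in barcodes with oligodendrocyte markers. At 1000 UMIs per cell 8.04% (4.83% to 12.4%) of IgA plasma cells held a Tigit UMI after anti-PD-1, against 5.99% of barcodes with oligodendrocyte markers and 4.01% of IgG plasma cells. After anti-TIGIT the shares were 17.6% (10.9% to 26.1%), 1.61% and 3.06%. Without thinning they were 30.4%, 11.3% and 11.6%, then 41.7%, 3.11% and 17.3%, at median depths of 5825.5, 5033 and 5932 and of 5757.5, 5687 and 5673.5 UMIs outside the immunoglobulin genes.

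Btla, an inhibitory receptor of lymphocytes that binds HVEM, followed the same pattern, with 77.2 and 23.6 CPM after anti-PD-1 and 137 and 41.8 CPM after anti-TIGIT (log2 fold change 1.76 ± 0.20, edgeR adjusted p = 0.00928). Tigit and Btla were the 2 genes called among 8 tested on the list of checkpoint receptors and ligands, beside 0.233% higher and 0.222% lower of all genes. DESeq2 called Tigit alone, among 6. Cd274, which encodes PD-L1, was present in both isotypes without passing the test, at 215 and 341 CPM after anti-PD-1 and 254 and 303 CPM after anti-TIGIT (log2 fold change -0.43, edgeR adjusted p = 0.388). Pdcd1, the target of the other antibody, had 6 UMIs in IgA plasma cells after anti-PD-1 and 1 after anti-TIGIT.

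Ly6c2, a surface gene that marks a subset of plasma cells and monocytes, was the gene with the smallest p. It was at 1479 CPM in IgA and 6242 CPM in IgG plasma cells after anti-PD-1 and at 1290 and 7374 CPM after anti-TIGIT, a log2 fold change of -2.24 ± 0.12 (edgeR adjusted p = 0.000318). Its relative Ly6k was lower too, with 1 and 84 UMIs after anti-PD-1 and 21 and 96 after anti-TIGIT, although the 5 highest IgG plasma cells held 86.9% and 93.8% of the IgG UMIs. Slpi, a secreted inhibitor of proteases, was at 6299 CPM in IgA and 13662 CPM in IgG plasma cells after anti-PD-1 and at 3846 and 10611 CPM after anti-TIGIT (log2 fold change -1.24 ± 0.10, edgeR adjusted p = 0.00342). Cox4i2, an alternative subunit of cytochrome c oxidase, had 1 and 0 UMIs in IgA plasma cells and 62 and 17 in IgG plasma cells. The other genes among the 10 largest decreases were Gpr18, Calhm6, Oosp1, Pon3, Ms4a1 and Napsa. Ms4a1 encodes CD20, a B cell surface protein that plasma cells largely lose.

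The remaining genes among the 10 largest increases were 5 genes of dividing cells (Hist1h1d, Pclaf, Hist1h2ae, Top2a and Rrm2), Rab30 and Spp1. Top2a, the topoisomerase that untangles chromosomes, was at 37.9 and 12.3 CPM after anti-PD-1 and 114 and 25.1 CPM after anti-TIGIT (log2 fold change 1.93 ± 0.26, edgeR adjusted p = 0.0177), and turned to -0.41 without the few cycling cells described below. Without those cells only 6 of the 10 genes were still tested, and 5 were called. In IgA plasma cells Hist1h1d then went from 8 and 66 UMIs to 3 and 10, and Hist1h2ae from 59 and 179 to 7 and 8. Spp1 rests on 1 barcode, which held 105 of its 121 UMIs in the anti-PD-1 library. Mgp, which was called lower, was the gene with opposite directions in the libraries. Apoe, Apod and Lyz2, also lower, are best known from myeloid and glial cells. Other cells' markers were carried by 67 of 276 and 8 of 98 IgG plasma cells, and by 42 of 224 and 6 of 108 IgA plasma cells. Without barcodes with other cells' markers, 9 of the genes named higher were still tested and edgeR called all 9. It also called all 10 named lower. The part of such RNA in these calls was not otherwise tested.

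Few genes of the secretory machinery were called between the isotypes, as were few of all genes (0.233% and 0.222%), so these counts show nothing particular to the lists. Of 16 genes for chaperones and folding in the endoplasmic reticulum edgeR called none (2 had an unadjusted p under 0.05, and DESeq2 called 0), with a median log2 fold change of 0.041 beside 0.00057 over all genes. Of 14 genes for degradation and stress it called none (2 unadjusted, 0 by DESeq2) and of 15 for transport to the Golgi none (2 unadjusted, 0 by DESeq2). Ssr4, a subunit of the translocon-associated complex, was the sole call among 18 genes of translocation and N-glycosylation (log2 fold change -0.73, edgeR adjusted p = 0.0110). Among 16 plasma cell identity genes Tnfrsf17 and Txndc5 were higher. Txndc5, a protein disulfide isomerase, had 1650 and 632 CPM after anti-PD-1 and 2147 and 869 CPM after anti-TIGIT (log2 fold change 1.40 ± 0.098, edgeR adjusted p = 0.00122).

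**Figure D4:**
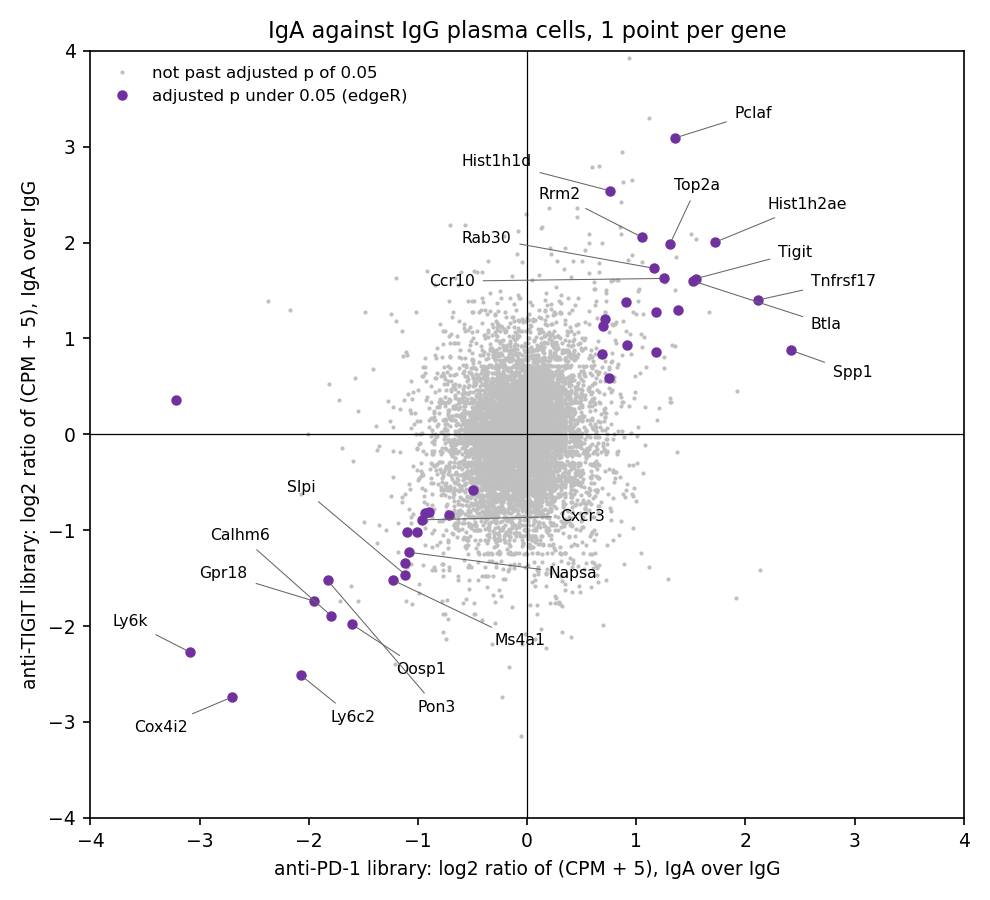
Each of the 8567 tested genes by its log2 ratio of (CPM + 5), IgA over IgG plasma cells, in the anti-PD-1 library (horizontal) and in the anti-TIGIT library (vertical), with the 39 genes at an edgeR adjusted p under 0.05 in purple; 1 gene lies outside the axes. The named genes fall in the upper right (Tnfrsf17, Btla, Tigit, Ccr10) and lower left (Ly6c2, Slpi, Cxcr3), and 1 called gene, Mgp, has opposite signs.

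Between the treatments, IgA plasma cells after anti-PD-1 had lower levels of most chaperone genes, of Irf4, of Ccr10 and of cell cycle genes, and higher levels of a longer list of genes. Among 5167 genes with at least 50 UMIs over both libraries, 238 (4.61%) were at least 2-fold higher after anti-PD-1 and 62 (1.2%) at least 2-fold lower, by the ratio of (CPM + 5). Of the 238 higher genes 191 were below 25% of their level in some other class of barcodes and can be free RNA, against 1 of the 62 lower genes. Without the barcodes that carry other cells' markers, 46 and 61 of 3908 genes passed, 39 and 36 of them shared with the full set, and the share of higher genes among those past 2-fold went from 79.3% to 43.0%. Of the 238 higher genes 79 still had 50 UMIs in that smaller set, so genes also left through the minimum count; at any count 88 of the 238 were past 2-fold. The share of higher genes was 57.0% in cells with Y-linked transcripts. All ratios compare 1 library with another, and their 95% intervals cover counting error alone.

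Iigp1, an immunity-related GTPase induced by interferon, had the largest ratio towards anti-PD-1 among the genes named by size. It had 187 UMIs in 42 cells (122 CPM) after anti-PD-1 and 6 UMIs in 3 cells (8.37 CPM) after anti-TIGIT, a log2 ratio of 3.25, or 2.07 without barcodes with other cells' markers. Camk2b, a subunit of a calcium-dependent kinase, had 1344 UMIs in 116 cells after anti-PD-1 and 192 in 17 cells after anti-TIGIT (log2 ratio 1.70, and 1.89 without those barcodes). Its ratio was -1.12 among Xist-positive cells. The uridine phosphorylase gene Upp1 (1.56, then 1.76), Cep85 (1.67, then 1.53), Eif3j2 (1.78, then 1.64) and Rasgef1b (2.12, then 1.65) stayed at or above 1.5 in both sets. Without barcodes with other cells' markers Rasgef1b went from 81 and 6 UMIs to 17 and 1. Its count ratio then had an interval of 0.66 to 8.72. Eif3j2 had 38 and 5 UMIs in that set, Upp1 70 and 10 and Cep85 103 and 19. Runx1 went from 1.87 to 0.01, Slc8a1 from 1.68 to 0.68 and Nfe2l2 from 1.56 to 0.77.

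Prg2, the gene of eosinophil major basic protein, had the largest ratio towards anti-TIGIT. It had 15 UMIs in 14 of 224 cells after anti-PD-1 and 187 UMIs in 45 of 108 cells after anti-TIGIT, at most 27 in a cell (log2 ratio -4.17, the same without barcodes with other cells' markers). IgG plasma cells showed it as well, with 43 UMIs in 27 of 276 cells and 241 in 51 of 98. Epx, which encodes eosinophil peroxidase, was found in 0 of 224 and 0 of 108 IgA plasma cells without thinning, which allows shares of up to 1.34% and 2.78%. Cxcl10, the interferon-induced ligand of CXCR3, had 112 UMIs in 18 cells and 241 in 14 cells (log2 ratio -2.12, and -4.34 without those barcodes), with 84.8% and 77.2% of its UMIs in the 5 highest cells.

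**Figure D5:**
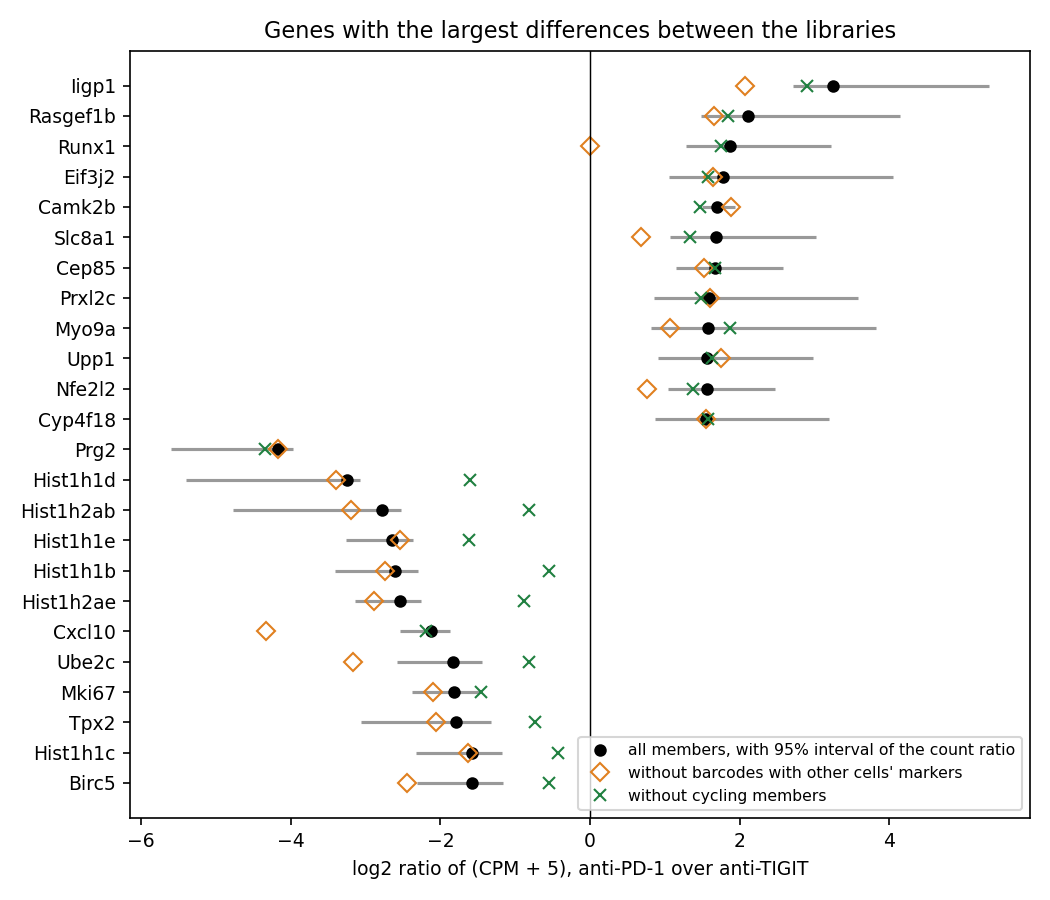
Log2 ratio of (CPM + 5), anti-PD-1 over anti-TIGIT, in IgA plasma cells for the 12 genes with the largest ratios in each direction, with the 95% interval of the count ratio (grey, without the added 5 CPM), for all cells (black), without barcodes with other cells' markers (orange) and without cycling cells (green). Runx1 moves from 1.87 to 0.01 without barcodes with other cells' markers, Prg2 stays at -4.17, and the histone genes and Birc5 move towards 0 without cycling cells.

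Most chaperone and folding genes of the endoplasmic reticulum lay on the side of anti-TIGIT. In 13 of 16 genes for chaperones and folding the interval of the ratio lay below 0 and in none above, with a median log2 ratio of -0.34. Over all 10185 genes with at least 10 UMIs, 9.05% lay below and 9.88% above, with a median of -0.0032; abundant genes such as these have narrower intervals and pass more easily. Without barcodes with other cells' markers 9 of the 16 lay below 0, with a median of -0.21. Of all 8799 genes with at least 10 UMIs in that set 10.0% lay below and 5.07% above. The median over all genes there was -0.094. Hsp90b1, the chaperone GRP94, had 3612 CPM after anti-PD-1 and 5435 CPM after anti-TIGIT (log2 ratio -0.59, interval of the count ratio -0.65 to -0.53). Hspa5, the chaperone BiP, had 1655 and 2103 CPM (-0.34), Calr, calreticulin, 499 and 693 CPM (-0.47) and Pdia6, a disulfide isomerase, 655 and 908 CPM (-0.47). Sdf2l1, a cochaperone of BiP, stood at 714 and 721 CPM, with an interval that held 0. Without barcodes with other cells' markers the log2 ratios were -0.46 for Hsp90b1, -0.21 for Hspa5, -0.38 for Calr and -0.31 for Pdia6, each with an interval below 0.

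These chaperones are known targets of the unfolded protein response, in which ATF6 and XBP1 bind the ER stress response element, CCAAT and CCACG separated by 9 bases. That motif was searched on both strands in the RefSeq promoters of GRCm38.p6, from 250 bases before to 50 after the gene start. It was found in 6 of 13 promoters of the chaperone list (46.2%), against 35 of 27025 promoters in all (0.130%), in 1 of 14 of the degradation list (Syvn1), in 0 of 14 of the translocation list, in 0 of 12 of the Golgi list and in 2 of 16 of the plasma cell identity list. The matches of the chaperone genes are shown because the genes lie on the side of anti-TIGIT together; each is written 5′ to 3′ along the motif with 5 flanking bases and with the motif's ends in capitals.
Hspa5, chr2:34772020-34772048, plus strand: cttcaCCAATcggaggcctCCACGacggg
Hsp90b1, chr10:86705633-86705661, minus strand: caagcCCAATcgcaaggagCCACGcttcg
Hsp90b1, chr10:86705528-86705556, plus strand: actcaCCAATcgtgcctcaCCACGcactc
Calr, chr8:84847070-84847098, plus strand: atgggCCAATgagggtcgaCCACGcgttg
Canx, chr11:50325795-50325823, minus strand: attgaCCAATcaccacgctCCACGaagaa
Dnajc3, chr14:118937822-118937850, plus strand: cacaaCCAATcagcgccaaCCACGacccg
Pdia6, chr12:17266486-17266514, plus strand: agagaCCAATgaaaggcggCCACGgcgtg
They end 46 (Hspa5) to 193 (Hsp90b1) bases before the start of the gene. Creld2 and Derl3 of the identity list carry the motif as well, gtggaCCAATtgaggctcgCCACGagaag and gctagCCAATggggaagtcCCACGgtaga, but did not share the direction: Creld2 had 771 and 770 CPM (log2 ratio 0.00) and Derl3 964 and 837 CPM (0.20), or 0.13 and 0.38 without those barcodes. A match is a string in the promoter and says nothing of binding in these cells.

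The rest of the secretory route shifted less evenly. Of 18 genes for translocation and N-glycosylation 13 had intervals below 0 and none above (median -0.25), beside 9.05% and 9.88% of all genes. Without barcodes with other cells' markers 5 lay below and 3 above (median -0.13). Of all genes in that set 10.0% lay below and 5.07% above, with a median of -0.094. Of 14 genes of degradation and stress 8 lay below 0 and 2 above, and 6 and 2 without those barcodes. The exceptions were Herpud1, an early target of the unfolded protein response, at 2107 CPM after anti-PD-1 and 1438 CPM after anti-TIGIT (log2 ratio 0.55), and Ern1, which encodes the stress sensor IRE1, at 161 and 119 CPM (0.43); their ratios without those barcodes were 0.595 and 0.601. The other stress sensors lay on the side of anti-TIGIT, Eif2ak3 (PERK) with 75.9 and 141 CPM (-0.85, and -0.80 without those barcodes) and Atf6 with 277 and 344 CPM (-0.31). For Atf6 the ratio without those barcodes was -0.13, with an interval of -0.38 to 0.12 that held 0. Of 15 genes of transport to the Golgi 5 lay below 0, and 2 without those barcodes.

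Among 16 plasma cell identity genes 10 had intervals below 0 and 1 above, beside 9.05% and 9.88% of all genes. The median was -0.28, and -0.13 without barcodes with other cells' markers, where that of all genes was -0.094. Irf4, the transcription factor that sets the plasma cell state, had 237 CPM after anti-PD-1 and 513 CPM after anti-TIGIT (log2 ratio -1.099, interval -1.33 to -0.90, and -0.90 without those barcodes). Pou2af1, a B cell coactivator, had 242 and 420 CPM (-0.78, then -0.56). Xbp1 had 1687 and 2053 CPM (-0.28, then -0.12), whereas Prdm1 (174 and 190 CPM), Sdc1 (268 and 283 CPM) and Tnfrsf17 (126 and 119 CPM) had intervals that held 0 in both sets. Of 12 survival genes 2 lay above 0 and 2 below, beside 9.88% and 9.05% of all genes. Without those barcodes it was 1 and 4, beside 5.07% and 10.0%. Bcl2, which restrains cell death, was at 131 and 89.2 CPM (log2 ratio 0.53, then 0.63) and Mcl1, its relative, at 382 and 474 CPM (-0.31, then -0.47).

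Of 15 homing genes 7 had intervals below 0 and 1 above, beside 9.05% and 9.88% of all genes. Without barcodes with other cells' markers it was 8 of 14 and 0, beside 10.0% and 5.07%. Ccr10 had 154 CPM after anti-PD-1 and 310 CPM after anti-TIGIT (log2 ratio -0.99, interval -1.28 to -0.74, and -0.71 without those barcodes). Cxcr4, the receptor for CXCL12 that holds plasma cells in bone marrow, had 32.1 and 90.6 CPM (-1.37, then -1.28), and Itga4, the integrin alpha 4 chain, 253 and 404 CPM (-0.67, then -0.55). Ccr9, the gut homing receptor, was scarce, with 8 and 16 UMIs. The 1 gene above 0 was Cd9 (205 and 64.1 CPM), which oligodendrocytes also express and which can be free RNA here; its ratio went from 1.61 to 0.47 without those barcodes.

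Of the checkpoint list, Tigit, Btla and Ctla4 were lower after anti-PD-1. Tigit had a log2 ratio of -0.57 (interval -0.93 to -0.24), Btla of -0.79 (-1.22 to -0.42) and Ctla4, with 59.5 and 134 CPM, of -1.11 (-1.60 to -0.74). Without barcodes with other cells' markers these ratios were -0.46, -0.81 and -1.01, each with an interval below 0. In the thinned anti-PD-1 cells a Ctla4 UMI was found in 5.36% of IgA plasma cells and in 9.005% of barcodes with oligodendrocyte markers, so Ctla4 is read as background there. Cd274 had an interval that held 0 (215 and 254 CPM). Lag3 and Cd86 pointed to anti-PD-1 (log2 ratios 2.84 and 1.91) but can be free RNA and stood at 1.41 and 1.02 without barcodes with other cells' markers. In all 3 of 12 genes lay below 0 and 2 above, beside 9.05% and 9.88% of all genes. Without those barcodes it was 3 and 2 of 10, beside 10.0% and 5.07%.

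The ratios of antigen presentation and chemokine genes moved when barcodes with other cells' markers were left out. Of 9 MHC class II genes 7 had intervals above 0 after anti-PD-1, beside 9.88% of all genes, with a median of 0.62. Without barcodes with other cells' markers it was 2 of 9, beside 5.07% of all genes. The median was then -0.06, beside -0.094 over all genes. H2-Aa went from 0.66 to -0.08. Chemokine genes of the list of secreted products, which microglia and T cells also express, had log2 ratios of 3.83 (Ccl5, 344 and 8 UMIs), 4.16 (Ccl4, 244 and 3 UMIs) and 3.24 (Ccl3, 105 and 2 UMIs), which went to 2.86, 2.16 and 0.50. The interleukin 10 gene Il10, described in IgA plasma cells of the nervous system, had 9 UMIs in 8 cells and 13 UMIs in 8 cells. Of 11 type I interferon genes 6 lay above 0 and 2 of 8 without those barcodes, beside 9.88% and 5.07% of all genes. Ifi27l2a held its ratio of 0.97 in both sets, with 775 and 392 CPM.

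Cell cycle genes were lower after anti-PD-1, and a few cells carried them. Of 14 genes 11 had intervals below 0 and none above, with a median log2 ratio of -1.32, and 10 and none without barcodes with other cells' markers (median -1.07). Of all genes 9.05% lay below 0, and 10.0% without those barcodes. Mki67, the proliferation marker, had 68 UMIs (44.5 CPM) after anti-PD-1 and 121 UMIs (169 CPM) after anti-TIGIT, a log2 ratio of -1.81. Cells with at least 5 UMIs of the list, leaving out Stmn1, Tubb5 and Pcna, were 7 of 224 (3.13%, 1.27% to 6.33%) and 7 of 108 (6.48%, 2.65% to 12.9%), and held 85.4% and 89.1% of its UMIs. Without them 2 of the 7 genes still measured lay below 0 and 2 above, with a median of -0.44, and Mki67 was at -1.45. All 7 of these cells in the anti-TIGIT library had Y-linked transcripts and no Xist. So had 56 of the 61 IgA plasma cells of that library with UMIs of 1 sex alone.

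Surface genes tied to subset and maturity were mixed, with 8 of 16 intervals above 0 and 5 below, and 7 and 3 without barcodes with other cells' markers. For this and the next 2 lists the shares of all genes were 9.88% above and 9.05% below, and 5.07% and 10.0% without those barcodes. Ly6d had 1123 CPM after anti-PD-1 and 641 CPM after anti-TIGIT (log2 ratio 0.80), Crip1 1493 and 888 CPM (0.75) and Epcam 48.4 and 20.9 CPM (1.04), and these ratios were 0.90, 0.93 and 1.02 without those barcodes. Cd52 lay on the side of anti-TIGIT (-0.35, then -0.24), whereas Lgals1 had a ratio of -0.36 that went to -0.11 without those barcodes, with an interval that held 0. Of 14 immediate early and heat shock genes, which also respond to tissue dissociation, 9 lay above 0 and 1 below, and 6 and 2 without those barcodes. Jun, a subunit of AP-1, had 1157 and 763 CPM (0.60, then 0.69) and Ier2 1075 and 704 CPM (0.61, then 0.63). Of 16 genes of energy and amino acid supply 7 lay below 0 and 1 above, with a median of -0.24. Without barcodes with other cells' markers 3 lay below and 1 above (median -0.17), and the median was 0.06 without the cycling cells.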

How the data were processed

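Single-cell 5′ libraries of 2 treatments, 1 each, were analysed from the counts that the authors deposited, which give UMIs of each gene in each barcode. Cell Ranger 8.0.0 (anti-PD-1) and 8.0.1 (anti-TIGIT) made them, per the file headers. The submitters' processing notes name mm10, Seurat 5.0.3 and R 4.1.1. The members and the gene lists were chosen with earlier results of these data known. Doublets were not removed in the main result; Scrublet called 466 of 13958 and 149 of 7826 barcodes, which an alternative leaves out.

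Counts were summed per library and isotype. Between treatments there was no test: CPM outside 392 immunoglobulin genes, log2 ratios of (CPM + 5) and exact 95% intervals (Poisson, Clopper-Pearson, conditional binomial; Newcombe for differences of shares) are given, which cover counting error only. Genes were named by list, or as the 12 largest ratios in each direction with at least 50 UMIs, a UMI in 5% or more of 1 library's IgA plasma cells, an interval without 0 and at least 25% of the highest level in another class, without mitochondrial, ribosomal, haemoglobin, sex-linked and unnamed genes. Between isotypes the 10 largest changes in each direction with the same sign in both libraries were named. IgG plasma cells met the same limits with an Ighg gene leading. Their sums were tested with edgeR 4.0.16 (filterByExpr, TMM, library as block; the SE is the fold change divided by the root of F) and DESeq2 1.42.0 in R 4.3.3. In counts simulated from these sums edgeR found 48.3% of genes changed by log2 1 and 92.9% by log2 2. It made 12 false calls among 8567 genes. In simulated Poisson counts the ratios found 100% of changes of log2 2 among 5167 genes, with 6 false 2-fold calls. The spread between cells was not simulated there. Barcodes were classed by marker lists to judge free RNA. Other settings were limits on quality, Jchain, Mzb1 and purity, the sex of cells, pseudocounts, scaling, minimum counts and thinning. Leaving out barcodes with other cells' markers, cycling cells and the Cd3 limit was added after the values were seen. Other tools were scanpy 1.11.5, matplotlib 3.10.9, pandas 2.3.3, scipy 1.17.1 and numpy 2.4.6 in Python 3.11.15.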

Additional observations from a re-analysis of the deposited data

Results flagged for a closer look

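The difference in the share of IgA plasma cells among kept barcodes, anti-PD-1 minus anti-TIGIT, had opposite signs by the sex of the cells. It was 1.33 percentage points (95% interval 0.741 to 1.86) among Xist-positive barcodes, with 53 of 3203 and 5 of 1522 cells, and -0.569 points (-1.32 to 0.125) among barcodes with Y-linked transcripts, with 59 of 3566 and 56 of 2518. The difference between these values was not tested, since there is 1 library per treatment.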

How the results depend on the processing

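The difference in the share of IgA plasma cells among kept barcodes (0.273 points) was 1.33 in Xist-positive barcodes, -0.569 in barcodes with Y-linked transcripts and 0.823 without the Cd3 limit; under the other settings it lay between 0.0231 and 0.315. The difference in the IgA share of plasma cells was 0.269 points where the top isotype held at least 90% of heavy chain UMIs and -25.7 in Xist-positive cells, of which 7 plasma cells remained after anti-TIGIT. Genes past 2-fold (238 higher and 62 lower after anti-PD-1) numbered 46 higher without barcodes with other cells' markers, 118 higher in cells with Y-linked transcripts, 139 and 30 with a pseudocount of 20 CPM, 34 lower with CPM over all UMIs, 33 and 15 of 832 after thinning, 708 and 199 at a minimum count of 10, and 66 and 14 at a minimum of 200. Without the filter for free RNA 1 of the 12 genes named higher and all 12 named lower would still be named.

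In Xist-positive cells, with 5 cells after anti-TIGIT, medians turned for chaperones (0.62), translocation (0.0041), homing (0.65), the cell cycle (0.24) and immediate early genes (-0.57), as did Camk2b (-1.12), Slc8a1 (-0.42), Hist1h1b, Mki67 and Birc5 (1.34 each), Hist1h2ae and Ube2c (0.59 each). The MHC class II median turned to -0.0623 without barcodes with other cells' markers, where that of all genes was -0.094. The cell cycle median turned to 0.95 over 4 genes after thinning.

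Between isotypes (20 higher and 19 lower in IgA) edgeR gave 0 and 0 with no replicate block for library, 96 and 141 without TMM, 137 and 166 with no filter, 71 and 70 at a Jchain minimum of 50, 57 and 41 at 90% purity, 83 and 98 without barcodes with other cells' markers, 64 and 93 without cycling cells, and DESeq2 8 and 8 of 3418 genes with an adjusted p. Top2a turned to -0.41 without cycling cells. DESeq2 lost Btla, Rab30, Rrm2, Top2a, Calhm6, Gpr18, Ms4a1 and Napsa. No paired analysis was possible between treatments because each has 1 library.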

Other observations

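Signals that plasma cells are known to depend on were found in some classes of barcodes. Classes with under 50 barcodes did not serve as reference. Among them were endothelium (7 and 2 barcodes), neutrophils (6 and 37) and, after anti-TIGIT, fibroblasts (43). Tnfsf13, which encodes APRIL, the ligand of BCMA, had 109 CPM in barcodes with border macrophage markers after anti-PD-1 and 90.3 CPM after anti-TIGIT, against 11.1 and 15.7 CPM in those with microglia markers and 1.96 and 1.39 CPM in IgA plasma cells. Tnfsf13b, which encodes BAFF, had 66.5 and 59.8 CPM in microglia and 20.7 and 9.85 CPM in T cells. Cxcl12, the ligand of CXCR4, was found at 518 CPM in 54 barcodes with fibroblast markers after anti-PD-1. Pigr, the epithelial carrier of IgA, had 0 UMIs in IgA plasma cells of both libraries.

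UMIs of both kinds of light chain constant gene were detected in most IgA plasma cells, Igkc in 99.6% and 99.1% and Iglc2 in 93.75% and 92.6%. Their levels differed, with 45332 Igkc and 4678 Iglc2 UMIs after anti-PD-1 and 16058 and 2759 after anti-TIGIT. A lambda V gene was assigned in 2 cells of each library. Iglc2 UMIs were also found in 6.82% and 2.06% of barcodes with oligodendrocyte markers. Whether a cell made both kinds of light chain was not tested. Constant genes of other isotypes were scarce, with Ighg2c in 21.0% and 21.3% and Ighm in 9.38% and 4.63% of IgA plasma cells.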
